A study of Mus musculus with 6 samples.

Results

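The 78 genes described here encode the proteins with which neighbouring cells hold on to each other, seal the space between them and exchange small molecules: 21 cadherins, 5 catenins, 22 claudins, 20 connexins, 3 pannexins and 7 further genes of tight junctions and epithelial adhesion (among them Ocln, F11r, Cgn, Epcam, Tjp1 and Tjp3). They were chosen by gene name alone, out of 48321 rows of the deposited table, and Cdh5, Cdh19 and Cldn5 were left out by the same rule. All 78 were found in the GENCODE M21 annotation, whose exon lengths were used to set levels of different genes side by side. RNA had been extracted from isolated pancreatic islets of C57BL6 mice, after normal chow in 3 samples and after a high-fat diet (60% of calories as fat, begun at 3 months of age and kept up for 4 months) in 3 others. All 6 are labelled wild type, and the 4-month feeding is written in the protocol of the chow samples too. The labels do not give the age of the chow mice, the sex, any pooling of animals or how libraries were prepared. In 48321 rows the deposited value of chow replicate 2 was the average of replicates 1 and 3 to within 1e-06, so n = 2 for chow and n = 3 for high-fat in everything below.

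Cadherins bind their own kind across the gap between cells, and catenins tie their tails to actin and control their turnover. Claudins, occludin and junctional adhesion molecules close the tight junction, held in place by the zonula occludens scaffolds of the Tjp genes. Connexins form gap junctions, and in islets the connexin encoded by Gjd2 couples beta-cells electrically, so that their calcium oscillations and insulin release run in step. Pannexins form channels in the plasma membrane that release ATP.

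Levels are CPM, the reads of a gene scaled to the size of its library. All rows together summed to 841705 and 674482 CPM on chow and to 963615, 832416 and 879301 CPM under high-fat feeding. Part of each library total thus lies outside the table, and that part differed between libraries. The spacing of low values placed the libraries between 18.8 M and 35.1 M reads (M, reads in units of 1e6), where 3 reads are worth 0.0856 to 0.16 CPM. Islet markers were present in all 5 libraries. The 10 beta-cell markers took 6.85% and 11.9% of the summed CPM on chow, and 9.12%, 11.5% and 9.97% under high-fat feeding. The 6 alpha-cell markers took 1.27% and 0.379% on chow, and 1.2%, 1.53% and 1.51% under high-fat feeding. Ppy, the marker of PP cells, took 0.102% and 0.431% against 0.119%, 0.112% and 0.119%. Chow replicate 3 thus stood apart in both, and the part of this in the values below was not tested. The markers of acinar cells, the enzyme-secreting cells around islets, took 26.2% of chow replicate 1 and 10.1% of chow replicate 3, and 11.2%, 1.51% and 4.45% of the high-fat libraries in the order of their numbers. Of 10 fibroblast and stellate markers 7 were lower under high-fat feeding, with a summed level of 280 to 369 CPM on chow against 156 to 195 CPM, and of 8 Schwann and neural markers 5 were lower and 1 higher (22.9 and 26.3 CPM in chow, 15.9 to 21.4 CPM under high-fat feeding). Rn7sk, a small RNA without a poly(A) tail, was at 6.27 and 13.3 CPM on chow and at 3192 to 3935 CPM under high-fat feeding, so differences in library preparation and in diet cannot be told apart. In bulk tissue, fewer cells of a type and less RNA per cell cannot be told apart either.

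Of the 78 genes, 44 reached a mean of 0.5 CPM over the 5 libraries and were tested with limma. Under high-fat feeding Cdh4, Cdh8, Ctnnd2 and Cldn7 were higher and Cdh7, Cdh11, Cdh13, Ctnna1 and Panx3 were lower at an adjusted p below 0.05, and 35 genes did not pass. That is 9.09% higher and 11.4% lower, against 14.9% and 8.78% of all 16939 genes tested, so the junction genes as a whole were called about as often as other genes. The median log2 fold change of the 44 was -0.07, against 0.05 for all genes tested. Groups did not overlap in 22 of the 44 (50%), against 55.4% of all genes, with 22.7% of the 44 higher and 27.3% lower, against 32.8% and 22.5% of all genes. The directions depended in part on the scaling. A scaling called islet-total below took each total without acinar and insulin genes. Despite its name, that total kept Rn7sk and RNA of other cell types, so it was not a total of islet RNA. With this scaling the median of all genes moved to -0.33. No junction gene was then higher by limma (1 at an unadjusted p below 0.05) and 20 were lower, against 4.75% and 38.3% of all genes. With median-ratio scaling 3 were higher and 7 lower, against 12.5% and 11.1% of all genes, and with all 6 columns in the fit, the averaged one included, 6 were higher and 10 lower, against 25% and 16.7%.

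**Figure D1:**
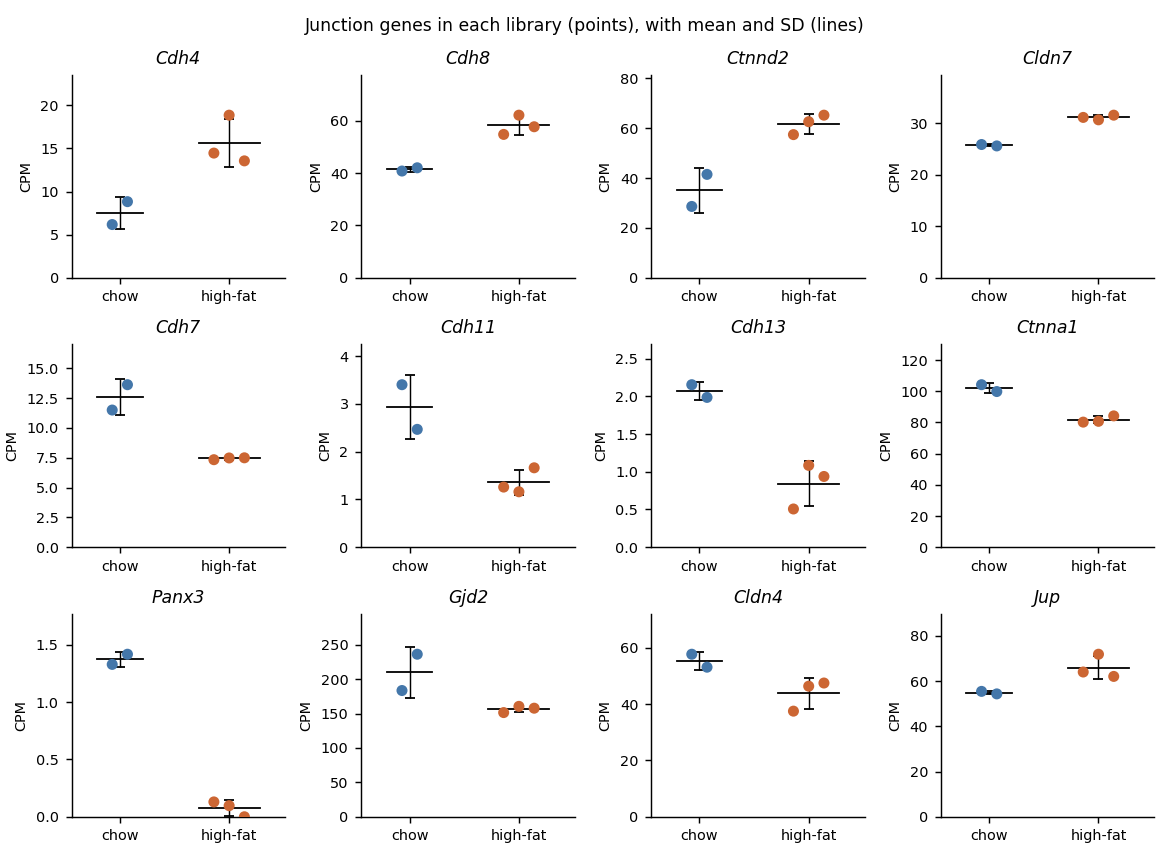
CPM (vertical axes, from 0) of 12 junction genes in 2 chow libraries (blue) and 3 high-fat libraries (orange), each point a library, with the mean as a line and the SD as a bar. Cdh4, Cdh8, Ctnnd2, Cldn7 and Jup lie higher in every high-fat library than in either chow library, and Cdh7, Cdh11, Cdh13, Ctnna1, Panx3, Gjd2 and Cldn4 lie lower.

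The cadherins of the islet were led by Cdh1 (E-cadherin), the adhesion molecule of epithelia. Cdh1 was at 226 and 260 CPM on chow and at 277, 287 and 294 CPM under high-fat feeding. Every high-fat library was above both chow libraries, but the log2 difference of 0.24 ± 0.11 (SE) did not pass (adjusted p = 0.151), and it was -0.22 with islet-total scaling. Cdh2 (N-cadherin), which beta-cells also carry, measured 128 and 145 CPM on chow, within reach of the high-fat values of 137, 138 and 154 CPM. Its groups overlapped (0.07 ± 0.10, adjusted p = 0.648), whereas islet-total scaling gave a call lower (-0.38, adjusted p = 0.0406). Less the median of all genes with that scaling, the value of Cdh2 was -0.05. Per kilobase of exon, Cdh1 stood at 53.2 CPM on chow and 62.5 CPM under high-fat feeding, and Cdh2 at 16.9 and 17.7 CPM. Cdh1 held 63% to 64.5% of the summed per-kilobase level of all 21 cadherins in each of the 5 libraries, and Cdh2 held 17.5% to 20.4%.

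Cdh4 (R-cadherin), a classical cadherin best known from neurons, had the largest rise among the 44 genes. It was at 6.17 and 8.82 CPM on chow and at 14.5, 18.9 and 13.6 CPM under high-fat feeding, with no overlap. The log2 fold change was 0.97 ± 0.19 (SE, adjusted p = 0.0133). Its share of the per-kilobase cadherin level, which library scaling does not touch, was 1.09% and 1.35% in chow and 2.12%, 2.66% and 1.85% under high-fat feeding. With islet-total scaling the difference was 0.56 (adjusted p = 0.0589), with no filter the adjusted p was 0.0634, and without chow replicate 1 it was 0.0579.

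Cdh8 and Cdh7 are type II cadherins, a branch with a different adhesive pocket that is prominent in the nervous system, and they changed in opposite directions. Cdh8 rose from 40.8 and 42.1 CPM on chow to 54.8, 62.2 and 57.8 CPM under high-fat feeding (log2 0.48 ± 0.08, adjusted p = 0.00983). Cdh7 fell from 11.5 and 13.6 CPM to 7.34, 7.48 and 7.49 CPM (log2 -0.68 ± 0.12, adjusted p = 0.00935), and the high-fat libraries were nearly level with each other. The fall of Cdh7 was called in 16 of the 16 alternative analyses. Within the cadherins, Cdh7 went from 1.47% and 1.5% of the per-kilobase level to 0.777%, 0.764% and 0.739%, and Cdh8 from 6.76% and 6.02% to 7.53%, 8.23% and 7.39%. The rise of Cdh8 shrank to 0.25 (adjusted p = 0.518) when the summed CPM of each library was set to the same total, and to 0.03 (adjusted p = 0.833) with islet-total scaling. Cdh22, a further type II cadherin, was at 12.7 and 21.6 CPM on chow and 20.6, 18.9 and 24 CPM under high-fat feeding, and chow replicate 1 stood apart as the low library (0.33 ± 0.21, adjusted p = 0.293). Its difference was -0.03 without chow replicate 1 (adjusted p = 0.91) and 0.68 without chow replicate 3, where it was called higher (adjusted p = 0.0222).

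Cdh11 (OB-cadherin), a cadherin of mesenchymal cells, and Cdh13 (T-cadherin), which has a lipid anchor in place of a tail and binds adiponectin, were low and fell further. Cdh11 was at 3.4 and 2.47 CPM on chow and at 1.26, 1.16 and 1.66 CPM under high-fat feeding (log2 -0.73 ± 0.18, adjusted p = 0.0293). Cdh13 was at 2.15 and 1.99 CPM and at 0.507, 1.08 and 0.938 CPM (log2 -0.75 ± 0.19, adjusted p = 0.0302). For both genes every high-fat library lay below both chow libraries. The 7 fibroblast and stellate markers named above fell in the same libraries, among them Dcn (60.9 and 21.1 CPM in chow, 2.94 to 6.81 CPM under high-fat feeding) and Col1a1 (28.6 and 18.4 CPM against 3.57 to 11.5 CPM), and their part in the result was not tested. Of 10 tested endothelial markers 3 were lower, with a summed level of 369 and 400 CPM on chow and 281 to 348 CPM under high-fat feeding. Both calls ended with no filter (adjusted p = 0.114 and 0.133) and without chow replicate 1 (0.147 and 0.122) or high-fat replicate 1 (0.0784 and 0.0665), 2 (0.0914 and 0.0535) or 3 (0.0513 and 0.0726), in the order Cdh11 and Cdh13. In the fit with the acinar score as covariate the adjusted p was 0.111 for Cdh11, and without chow replicate 3 it was 0.0655 for Cdh13.

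The other 13 cadherins were low. Cdh9, Cdh23 and Cdh24 were tested at 0.358 to 1.86 CPM and did not pass, with log2 fold changes from -0.09 to 0.12. The 10 that were not tested were at or below 1.06 CPM in each library. Of these, Cdh6 was at 1.06 and 0.648 CPM on chow and at 0.127, 0.174 and 0.298 CPM under high-fat feeding, a value singled out after it was seen.

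The 5 catenins counted here showed a shift in their make-up. Ctnnb1, not among them, was above each of them in CPM, at 286 and 270 CPM on chow and 263, 265 and 257 CPM under high-fat feeding (-0.08 ± 0.10, adjusted p = 0.547). Ctnna1 (alpha-E-catenin), which joins the cadherin complex to actin, fell from 104 and 99.8 CPM on chow to 80.2, 80.7 and 84.2 CPM under high-fat feeding (log2 -0.32 ± 0.08, adjusted p = 0.0278). Ctnnd2 (delta-catenin), the neural relative of the cadherin-stabilising Ctnnd1, rose from 28.6 and 41.5 CPM to 57.4, 62.6 and 65.3 CPM (log2 0.82 ± 0.15, adjusted p = 0.0118). Neither gene's groups overlapped. Jup (plakoglobin), the catenin shared with desmosomes, was at 55.4 and 54.3 CPM and at 64, 71.8 and 62 CPM, again without overlap, but did not pass (0.26 ± 0.09, adjusted p = 0.0785). Ctnna2 was at 6.83 and 5.68 CPM against 6.55, 6.55 and 7.68 CPM (adjusted p = 0.527).

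Shares of the per-kilobase level of these 5 catenins, Ctnnb1 not counted, cancel the scaling. By this measure Ctnna1 went from 36.5% and 34.1% in chow to 28.1%, 28.3% and 28.1% under high-fat feeding. Ctnnd2 went from 6.25% and 8.82% to 12.5%, 13.7% and 13.6%. With islet-total scaling Ctnnd2 was at 0.38 (adjusted p = 0.112) and Jup at -0.19, and with each library's summed CPM set to the same total the adjusted p was 0.0692 for Ctnnd2 and 0.089 for Ctnna1. The call of Ctnnd2 ended with no filter (adjusted p = 0.0627). That of Ctnna1 ended there (0.0661), with no trend in the variance prior (0.0667), in the fit with the acinar score as covariate (0.0974), and without chow replicate 1 (0.0746) or high-fat replicate 1 (0.0948), 2 (0.0996) or 3 (0.0747).

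Ctnnd1 itself was at 116 and 123 CPM on chow and at 114, 100.1 and 121 CPM under high-fat feeding (-0.10 ± 0.10, adjusted p = 0.516), and was called lower with islet-total scaling (-0.55, adjusted p = 0.00811). In GENCODE M21 it shares 61.2% of its exon bases with Gm28635, a protein-coding model on the same strand, so the split of reads between the 2 rows is uncertain. Gm28635 was listed at 3.49 and 7.13 CPM on chow and at 19.6, 31.9 and 19.8 CPM under high-fat feeding. The library with the most Gm28635, high-fat replicate 2, had the least Ctnnd1. The sum of the 2 rows was 119 and 130.02 CPM on chow and 133, 132 and 141 CPM under high-fat feeding. How the authors' counting shared these reads was not tested, and the catenin shares above use the Ctnnd1 row alone.

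**Figure D2:**
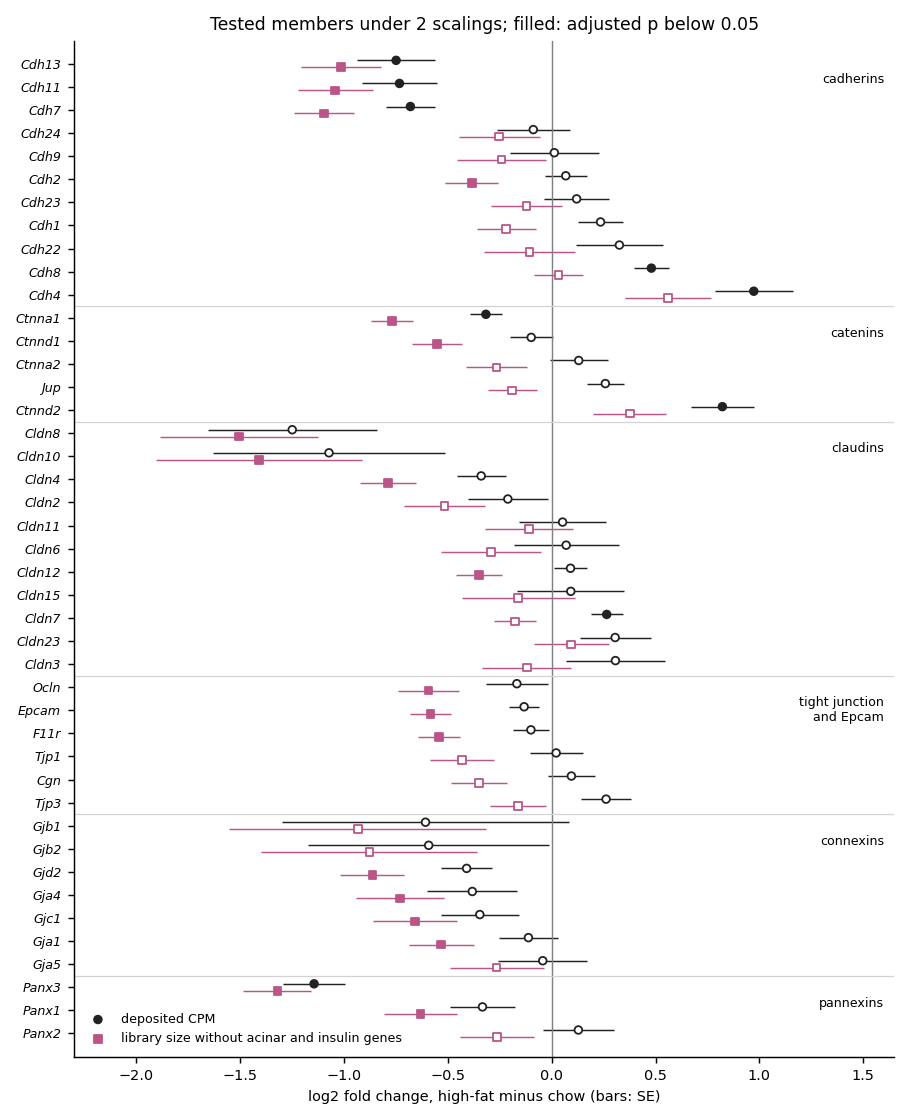
Log2 fold change (horizontal axis, high-fat minus chow, bars SE) of the tested junction genes by family, 1 of them left out, with the deposited CPM (circles) and with totals that leave out acinar and insulin genes (squares), filled where the adjusted p is below 0.05. The squares sit left of the circles throughout, Cdh4, Ctnnd2, Cdh8 and Cldn23 stay right of 0 in both, and Cdh7, Cdh11, Cdh13, Ctnna1 and Panx3 are filled in both.

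Promoter sequences are shown for 4 genes whose levels separated the diets, so that the letters around their start sites can be set beside the changes: Cdh8 and Ctnnd2, which were higher, Cdh7, which was lower, and Gjd2, the connexin of beta-cells. They are RefSeq windows of GRCm38 from 250 bases before to 50 bases after a start, read 5′ to 3′ on the gene's strand. Of the 78 genes 54 had an entry, and for Cdh7 the most upstream of its listed starts is given. Capitals mark the GC box GGGCGG, the TATA box TATAAA or the cAMP response element TGACGTCA on either strand.
Cdh8 (chr8:99416422-99416721, minus strand): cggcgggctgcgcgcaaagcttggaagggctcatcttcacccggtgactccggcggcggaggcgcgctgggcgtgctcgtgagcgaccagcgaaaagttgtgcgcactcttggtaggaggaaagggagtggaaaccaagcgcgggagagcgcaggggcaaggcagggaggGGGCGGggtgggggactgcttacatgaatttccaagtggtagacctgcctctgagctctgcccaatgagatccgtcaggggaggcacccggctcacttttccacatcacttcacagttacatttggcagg
Ctnnd2 (chr15:30172284-30172583, plus strand): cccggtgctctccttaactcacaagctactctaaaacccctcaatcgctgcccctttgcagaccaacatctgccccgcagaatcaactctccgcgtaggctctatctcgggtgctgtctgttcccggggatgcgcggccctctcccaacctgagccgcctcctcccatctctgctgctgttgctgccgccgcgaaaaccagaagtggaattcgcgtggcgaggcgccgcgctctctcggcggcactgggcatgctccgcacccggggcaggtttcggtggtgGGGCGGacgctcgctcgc
Cdh7 (chr1:109982650-109982949, plus strand): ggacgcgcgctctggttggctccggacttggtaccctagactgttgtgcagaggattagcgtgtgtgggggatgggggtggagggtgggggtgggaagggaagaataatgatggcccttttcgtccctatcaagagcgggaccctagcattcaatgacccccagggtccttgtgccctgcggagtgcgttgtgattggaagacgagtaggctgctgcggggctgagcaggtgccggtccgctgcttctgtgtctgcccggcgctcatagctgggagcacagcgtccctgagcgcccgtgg
Gjd2 (chr2:114013570-114013869, minus strand): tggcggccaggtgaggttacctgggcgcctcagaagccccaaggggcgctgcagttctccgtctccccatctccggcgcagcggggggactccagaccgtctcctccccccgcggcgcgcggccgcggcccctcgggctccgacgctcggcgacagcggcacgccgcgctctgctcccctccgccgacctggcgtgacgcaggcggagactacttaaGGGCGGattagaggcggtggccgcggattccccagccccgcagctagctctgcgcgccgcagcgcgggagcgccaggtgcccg
The only capitals in the 4 windows are a GC box each in Cdh8, Ctnnd2 and Gjd2. Of all 32851 windows of this length 35.7% hold a GC box, 13.6% a TATA box and 1.79% a cAMP response element. The GC content was 62.3% for Cdh8, 64.7% for Ctnnd2, 62.7% for Cdh7 and 75% for Gjd2, against a median of 52.7%. The other windows listed for Cdh7 had 60.7% and 49.7%, and which start is used in islets was not tested.

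Claudins decide which ions and solutes pass between cells. Cldn4, Cldn3 and Cldn7, claudins of tight epithelia, and the broadly expressed Cldn12 carried most of the per-kilobase claudin level, and 11 of the 22 claudins were too low to test. Cldn7 was at 25.8 and 25.6 CPM on chow and at 31.1, 30.6 and 31.5 CPM under high-fat feeding, a rise of 0.26 ± 0.08 on the log2 scale (adjusted p = 0.0469) between groups that did not overlap. Its call was among the weakest, kept in 4 of the 16 alternatives. It ended with median-ratio scaling (adjusted p = 0.0971), the trimmed mean of M values (0.094), equal summed CPM (0.943), with no filter (0.0767), in the fit with the acinar score as covariate (0.14), with no trend in the variance prior (0.0938) and without any of the libraries (0.0791 to 0.135), and the value turned to -0.18 with islet-total scaling.

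Cldn4 went the other way, from 57.7 and 53.1 CPM on chow to 37.5, 46.4 and 47.5 CPM under high-fat feeding, with no overlap, and did not pass with the deposited CPM (log2 -0.34 ± 0.12, adjusted p = 0.0789). It passed with median-ratio scaling (-0.41, adjusted p = 0.0431), the trimmed mean of M values (0.0438), islet-total scaling (-0.79, 0.00327) and all 6 columns (0.0263), which counts the averaged column as a replicate. Cldn4 did not pass with equal summed CPM (adjusted p = 0.0655), no filter (0.195), no trend in the variance prior (0.13), the acinar score as covariate (0.0952) or any high-fat library left out (0.101 to 0.163). The other pseudocounts and the filter at 1 CPM gave no call either (0.0781 to 0.0792). Its log2 difference was -0.28 without chow replicate 1 and -0.40 without chow replicate 3. Cldn4 held 41% and 46.4% of the per-kilobase claudin level in chow and 32%, 38.8% and 36.6% under high-fat feeding, and Cldn7 held 17.1% and 20.8% against 24.8%, 23.9% and 22.6%. Cldn3 was at 18.4 and 10.3 CPM on chow and 17.8, 14.3 and 20.3 CPM under high-fat feeding, and its groups overlapped (0.31 ± 0.24, adjusted p = 0.385). Without chow replicate 1 the difference of Cldn3 was 0.70 (adjusted p = 0.0681), and without chow replicate 3 it was -0.08 (adjusted p = 0.775). Cldn12 was at 27.3 and 29.2 CPM against 29.7, 30.8 and 30 CPM (0.09 ± 0.08, adjusted p = 0.442). With islet-total scaling Cldn12 was called lower (-0.35, adjusted p = 0.0339), but less the median of all genes the value was -0.02.

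Cldn10, a channel-forming claudin, varied among libraries of the same diet. It was at 8.51 and 2.68 CPM on chow and at 4.35, 0.593 and 1.62 CPM under high-fat feeding (log2 -1.07 ± 0.56, adjusted p = 0.204). From high to low, its libraries stood in the order of their acinar marker share, as did those of 3 of the 44 genes (Cldn10, F11r and Gjb2) and of 1.31% of all genes tested. Its log2 difference was -0.14 in a fit with the acinar score as covariate, and it was called lower with equal summed CPM (-1.31, adjusted p = 0.000656) and with islet-total scaling (-1.41, adjusted p = 0.0491). Cldn8, a barrier claudin singled out after its values were seen, was at 5.23 and 1.26 CPM on chow and at 0.928, 0.314 and 0.553 CPM under high-fat feeding (log2 -1.25 ± 0.41, adjusted p = 0.0654). Its high-fat libraries lay below both chow libraries. So did the summed level of the 10 duct markers, at 486 and 357 CPM on chow and 291 to 335 CPM under high-fat feeding. By limma 3 of these markers were lower and 1 higher, and their part in the values of Cldn8 was not tested. The libraries of Cldn8 did not stand in the order of their acinar share, but chow replicate 1, the largest in that share, lay far above the rest. Without that library the log2 difference was -0.52 (adjusted p = 0.252), and without chow replicate 3 it was -1.98 (adjusted p = 0.00518). Cldn8 was also called lower with equal summed CPM (adjusted p = 2.4e-05), with islet-total scaling (0.0146) and with all 6 columns (0.0238). The last of these counts the averaged column as a replicate. With equal summed CPM the SE was 0.27 for Cldn8 and 0.30 for Cldn10, against 0.41 and 0.56 with the deposited CPM. That of Cdh1 went from 0.11 to 0.27, so p-values of that fit drew largely on a spread shared among genes. The cation-selective Cldn2 (1.43 to 2.71 CPM) and Cldn6, Cldn11, Cldn15 and Cldn23 (0.324 to 5.63 CPM) did not pass. Of the 11 untested claudins, Cldn13 was listed at 0 in every library, and Cldn22 lies wholly within an exon of Wwc2 on the other strand.

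The tight junction scaffolds and adhesion molecules gave no call with the deposited CPM. None of the 7 passed limma's threshold, and 0 had an unadjusted p below 0.05. Tjp1, the main zonula occludens scaffold, was at 133 and 167 CPM on chow and at 141, 147 and 167 CPM under high-fat feeding (0.02 ± 0.13, adjusted p = 0.917). Tjp3, a further scaffold of the same family, was at 11.2 and 11.6 CPM on chow and at 13.5, 12.5 and 15.7 CPM under high-fat feeding (0.26 ± 0.12, adjusted p = 0.161). Every high-fat library was above both chow libraries.

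Ocln (occludin) was at 13.7 and 14.4 CPM on chow and 14.7, 10.4 and 12.5 CPM under high-fat feeding, and the junctional adhesion molecule F11r at 31.7 and 28 CPM against 28.3, 27.4 and 27.5 CPM. Cgn (cingulin), which links the junction to the cytoskeleton, measured 35.8 and 38.6 CPM against 41.2, 43.9 and 34.9 CPM. Epcam, an adhesion protein of epithelial cells, was at 86 and 84.8 CPM on chow and at 79.5, 76.6 and 77.5 CPM under high-fat feeding, a small difference without overlap (-0.13 ± 0.07, adjusted p = 0.231). With islet-total scaling, which lowered the median of all genes too, Ocln (-0.59), Epcam (-0.58) and F11r (-0.54) were called lower. Less the median of all genes these values were -0.26, -0.25 and -0.21.

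Gjd2 made up nearly all of the connexin message. It was at 183 and 236 CPM on chow and at 151, 160 and 158 CPM under high-fat feeding, and held 84.6% to 93.3% of the summed per-kilobase level of the 20 connexins. Every high-fat library lay below both chow libraries, and the chow libraries differed more from each other than the high-fat ones did. The log2 difference of -0.41 ± 0.12 lay just outside the threshold (adjusted p = 0.0513). It was called lower with median-ratio scaling (-0.48, adjusted p = 0.0223), the trimmed mean of M values (0.023), islet-total scaling (-0.86, 0.00373) and all 6 columns (0.0133). Gjd2 was not called with equal summed CPM (adjusted p = 0.0721), no filter (0.144), no trend in the variance prior (0.0812) or the acinar score as covariate (0.052). Nor did it pass without high-fat replicate 1 (0.139), 2 (0.123) or 3 (0.13), or with the other pseudocounts or the filter at 1 CPM (0.0504 to 0.0517). The log2 difference was -0.59 without chow replicate 1 and -0.23 without chow replicate 3. Of the 10 beta-cell markers 4 were higher, 0 were lower and the rest did not pass with the deposited CPM (median log2 0.47), among them Slc2a2, the beta-cell glucose transporter, at -0.24 (adjusted p = 0.328). The 10 markers summed to 57623 and 80115 CPM on chow and 87653 to 95727 CPM under high-fat feeding. As shares of each library's summed CPM the groups overlapped, with 6.85% and 11.9% on chow against 9.12%, 11.5% and 9.97%.

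Within a library the order of Gjd2 and Cdh1 can be read without any scaling. Per kilobase of exon Gjd2 stood above Cdh1 in both chow libraries, at 63.7 against 49.5 CPM and 82.1 against 56.9 CPM. Under high-fat feeding Cdh1 stood above Gjd2 in all 3 libraries, at 60.6, 62.8 and 64.2 CPM against 52.6, 55.7 and 54.8 CPM. Epcam (38.9 CPM per kilobase in chow and 35.5 under high-fat feeding) and Cldn4 (30.5 and 24.1) came next on both diets, and did not overlap with each other or with the pair above them. The order rests on the exon lengths of the annotation, which may differ from the transcripts present, but those lengths are the same for every library.

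**Figure D3:**
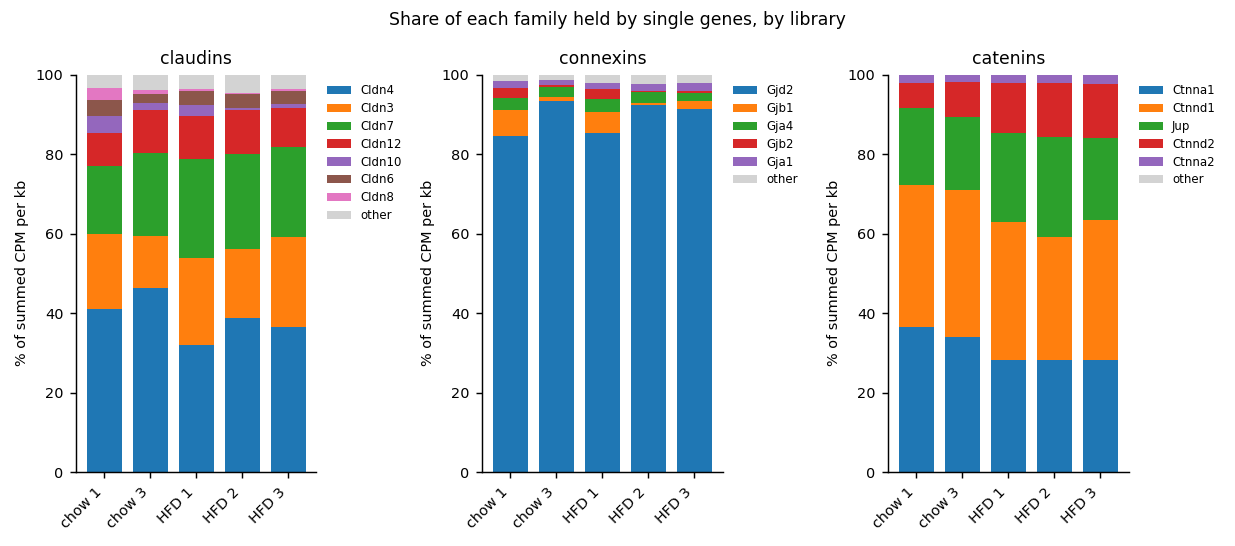
Share (vertical axis, percent of the family's summed CPM per kilobase of exon) of single genes among claudins, connexins and catenins (Ctnnb1 not counted) in each library, with rarer genes in grey. Gjd2 fills 84.6% to 93.3% of the connexin bar, Ctnna1 is shorter and Ctnnd2 taller in the 3 high-fat bars than in the 2 chow bars, and Cldn4 is shorter and Cldn7 taller.

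The other connexins were low, and none of the 7 tested connexins passed limma's threshold (1 of them, Gjd2, had an unadjusted p below 0.05). All 7 log2 differences were below 0 with the deposited CPM, where their median was -0.38, and with each of the 4 other scalings. Equal summed CPM and islet-total scaling also moved the median of all genes, to -0.15 and -0.33. Less the median of all genes, that of the connexins was -0.43 with the deposited CPM and -0.40 to -0.44 with the other scalings. With no filter 11 of 20 connexins were below 0, with a median of -0.02. In the fit with the acinar score as covariate 5 of 7 were below 0, as also without high-fat replicate 1, against 5 of 8 without chow replicate 1 and 6 of 7 without chow replicate 3. Gjb1 and Gjb2, the gap junction proteins of acinar cells, were at 8.29 and 1.62 CPM and at 4.94 and 1.13 CPM in chow replicates 1 and 3. Under high-fat feeding Gjb1 was at 5.74, 0.571 and 2.21 CPM and Gjb2 at 3.67, 0.428 and 0.979 CPM. For both genes chow replicate 1 was highest, high-fat replicate 1 second and high-fat replicate 2 lowest, as for the acinar markers, and the groups overlapped (adjusted p = 0.552 and 0.486). In the fit with the acinar score as covariate their log2 differences went from -0.61 to 0.56 and from -0.59 to 0.35, and neither passed.

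**Figure D4:**
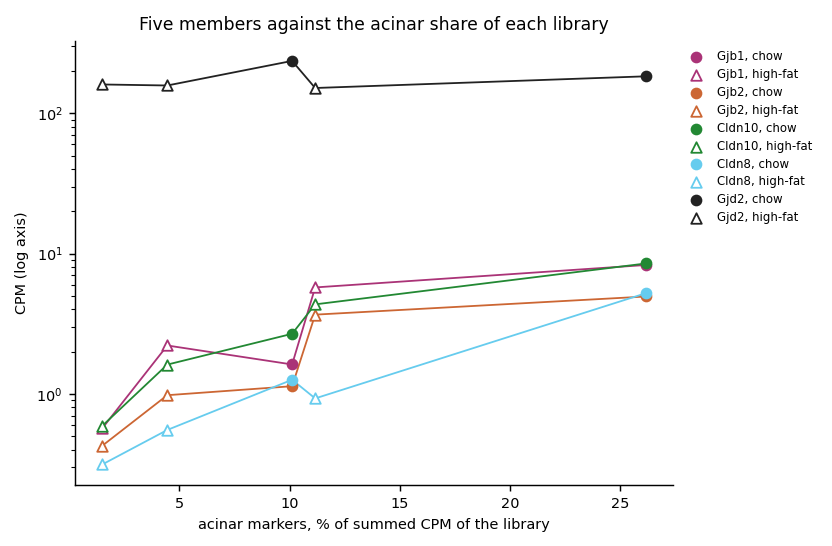
CPM (vertical log axis) of Gjb1, Gjb2, Cldn10, Cldn8 and Gjd2 against the share of each library's summed CPM held by acinar markers (horizontal axis), with chow libraries as circles, high-fat libraries as triangles and a line joining the points of each gene. Gjb1, Gjb2 and Cldn10 are lowest in the library with 1.51% and highest in that with 26.2%, whereas Gjd2 stays between 151 and 236 CPM.

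Gja1, the connexin of fibroblasts and muscle, was at 12.2 and 11.2 CPM on chow and 9.07, 11.2 and 12.3 CPM under high-fat feeding, with overlap (adjusted p = 0.598). Gja4 and Gja5, connexins of the endothelium, were at 1.79 to 3.77 CPM and 0.612 to 1.33 CPM. Gja4 was at 3.77 and 3.68 CPM on chow and 3.44, 2.85 and 1.79 CPM under high-fat feeding, without overlap (-0.38 ± 0.22, adjusted p = 0.236). Gjc1, a connexin of smooth muscle and heart, was at 2.18 and 2.8 CPM against 1.48, 2.26 and 1.53 CPM (-0.35 ± 0.19, adjusted p = 0.219). With islet-total scaling Gja1 (-0.53, adjusted p = 0.026), Gja4 (-0.73, 0.0244) and Gjc1 (-0.66, 0.0305) were called lower. The 13 untested connexins were at or below 0.638 CPM in each library, and 5 of them rose above 3 reads in no library.

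Panx3 had the smallest p of the 44 genes. It was at 1.33 and 1.42 CPM on chow and at 0.129, 0.0968 and 0 CPM under high-fat feeding, with 3 reads worth 0.127, 0.0856 and 0.128 CPM in these libraries. The log2 difference was -1.14 ± 0.15 (adjusted p = 0.0034). It reached the minimum level through the chow libraries alone and so had to differ, and with a minimum of 1 CPM or with either chow library left out it was no longer tested. Panx1, the widely expressed ATP release channel, was at 2.02 and 2.31 CPM on chow and 1.31, 1.75 and 1.49 CPM under high-fat feeding, lower in every high-fat library without passing (-0.33 ± 0.16, adjusted p = 0.167), and was called lower with islet-total scaling (-0.63, adjusted p = 0.0209) and with all 6 columns (0.0417). Panx2 was at 5.95 and 5.63 CPM against 5.33, 6.26 and 7.91 CPM (adjusted p = 0.611).

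Partners of these junctions that are not among the genes counted above were read from a list of Ctnnb1 and other adherens junction genes, nectins, polarity proteins, further tight junction proteins and desmosomal proteins. Of 46 tested, 5 were higher (10.9%) and 1 lower (2.17%), both below the 14.9% and 8.78% of all genes tested, with a median log2 fold change of -0.01, and 0 of 8 desmosomal genes passed (1 had an unadjusted p below 0.05). Nectin1, an adhesion molecule that starts adherens junctions, rose from 22.4 and 27.8 CPM on chow to 44.9, 45.6 and 43.1 CPM under high-fat feeding (log2 0.81 ± 0.11, adjusted p = 0.00332). Nectin3, which pairs with Nectin1 across cells, fell from 74.5 and 79.6 CPM to 59.5, 61.6 and 65.7 CPM (log2 -0.30 ± 0.08, adjusted p = 0.0398). No library of one diet overlapped with the other for either nectin.

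The remaining calls were in apical polarity and tight junction genes. Pard3, a scaffold of cell polarity, rose from 42.5 and 47.6 CPM on chow to 64.7, 61.8 and 65 CPM under high-fat feeding (log2 0.49 ± 0.08, adjusted p = 0.00865). Crb3, of the apical crumbs complex, was at 12 CPM on chow and 16.7 CPM under high-fat feeding on average (0.44 ± 0.11), the scaffold Mpdz at 29.3 and 39.5 CPM (0.42 ± 0.11), and Ildr1, of tricellular contacts, at 36.6 and 46.9 CPM (0.35 ± 0.09). With islet-total scaling no partner was higher (1 at an unadjusted p below 0.05), Nectin1 was at 0.37 (adjusted p = 0.0555), Pard3 at 0.05, Crb3 at 0.02, Mpdz at -0.027 and Ildr1 at -0.10. With equal summed CPM none of the 6 named partners was called (adjusted p from 0.0646 for Nectin1 to 0.79 for Ildr1). Calls of Crb3, Mpdz, Ildr1 and Nectin3 also ended with no filter (adjusted p = 0.0731, 0.0996, 0.0937 and 0.0959). The call of Nectin3 ended further in the fit with the acinar score as covariate (0.0886), with no trend in the variance prior (0.0869), and without any of the libraries (0.0591 to 0.125). That of Crb3 ended with median-ratio scaling (0.056), with the trimmed mean of M values (0.0549) and without any of the libraries (0.0531 to 0.0885). Those of Mpdz and Ildr1 ended with the covariate (0.132 and 0.153) and with no trend (0.0653 and 0.0739). Mpdz lost its call without each library except high-fat replicate 1 (0.077 to 0.104), and Ildr1 without each except chow replicate 3 (0.0758 to 0.126).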

How the data were processed

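The members and gene lists were chosen with earlier results of these data known. RNA sequencing of islets was deposited as a table with 1 column per sample and no unit in its header. Per the submitters' processing notes Partek was used. Version, aligner, build and annotation: not given in the sources used here. In every column the lowest deposited value was 1 and the smallest common step above it gave the worth of 1 read, so each deposited score was read as CPM plus 1 and 1 was subtracted. That reading is from the values. Chow replicate 2, the mean of the other chow columns, was left out. Nothing in the labels says that samples came from separate animals, and p-values therefore cover only sample-to-sample spread, possibly technical.

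Differences were fitted with limma 3.58.1 (R 4.3.3, trend in the variance prior) on log2(CPM + 1) for the 16939 rows whose mean over 5 libraries reached 0.5 CPM, with Benjamini-Hochberg adjustment over all of them and a threshold of 0.05. On this scale the change of low genes is understated. Named were all members past the threshold, those averaging 10 CPM or more, a list of main genes of each family, and the 6 listed partners with the smallest p; others were chosen after their values were seen. Exon lengths came from GENCODE M21 and promoters from RefSeq (GRCm38). On simulated data with these 16939 genes, the fit recovered 73% of changes of 1 and 97% of changes of 2 on the log2 scale, with 8 false calls among 178. The noise was independent between libraries, and changes were placed only in genes averaging above 2 on the log2(CPM + 1) scale. The rates therefore do not cover lower genes such as Cdh11, Cdh13 and Panx3. The 16 alternatives varied the scaling, filter, pseudocount, covariate, variance prior and libraries. Median-ratio factors and the trimmed mean of M values were computed from the CPM, without precision weights, and no filter meant all rows above 0 in some library. The values of 1 tested member are not reported here.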

Additional observations from a re-analysis of the deposited data

How the results depend on the processing

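The counts were 4 members higher and 5 lower, and 5 listed partners higher and 1 lower, with the deposited CPM. Of all genes tested, 14.9% were higher and 8.78% lower. With equal summed CPM, 1 member was higher, and 0 partners were higher (1 at an unadjusted p below 0.05) and 4 lower. With islet-total scaling (totals that leave out acinar and insulin genes), 0 members were higher (1 at an unadjusted p below 0.05) and 20 lower. In that setting 0 partners were higher (1 at an unadjusted p below 0.05) and 27 lower, against 4.75% of all genes higher and 38.3% lower. Among genes with a call in either setting, that one reversed Cldn7 (-0.18), Cdh2 (-0.38), Cldn12 (-0.35), Mpdz (-0.027) and Ildr1 (-0.10), and with no call in either it turned Cdh1 (-0.22), Cdh22 (-0.11), Cgn (-0.35), Cldn3 (-0.12), Jup (-0.19), Tjp1 (-0.43) and Tjp3 (-0.16) below 0, beside a shift of the median of all genes from 0.05 to -0.33. With no filter 39352 rows were tested, 1 member was higher and 2 lower, and 2 partners were higher and 0 lower (6 at an unadjusted p below 0.05). With the acinar score as covariate 3 members were lower, and 3 partners were higher and 0 lower (1 at an unadjusted p below 0.05). With all 6 columns 10 members were lower, and 13 partners were higher and 8 lower, against 25% of all genes higher and 16.7% lower. Without a trend in the variance prior 3 partners were higher and 0 lower (4 at an unadjusted p below 0.05), and 3 were lower with median-ratio scaling or the trimmed mean of M values. With 1 library left out, 2 to 4 members were higher and 2 to 4 lower, and 2 to 5 partners were higher and 0 to 7 lower, the 7 without chow replicate 3. Leaving out a chow library leaves 1, which is assumed to vary like the high-fat ones. Apart from fewer libraries or more rows in these settings, the cause was not tested. The share of all genes called was counted only with the deposited CPM, median-ratio scaling (12.5% higher, 11.1% lower), islet-total scaling and all 6 columns. In the other settings a change in these counts cannot be set beside that of all genes. Over the named genes and the 16 alternatives, 444 values kept direction and side of the threshold, 78 lost the call, 23 gained one, and 23 changed sign without a call in either setting. No paired analysis was possible because the labels give the diets no shared replicate numbers.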
